A study of Mus musculus with 2 samples.

Results

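Zbp1, Ripk1, Ripk3, Mlkl, Casp8, Cflar, Fas, Tnfsf10 and Xaf1 are 9 genes of death receptor signalling, necroptosis and the sensing of Z-form nucleic acid by ZBP1. They were selected by symbol, as the rows of the deposited count table whose Ensembl identifier maps to one of these mouse names, and all 9 were found among the 22060 genes of the table. The table compares unstimulated bone marrow-derived macrophages of C57BL/6 mice in 1 wild-type library (WT) and 1 library labelled as carrying T403A, the replacement of a threonine of STAT2 by alanine. Per the labels, both cultures came from 8-week-old animals, were grown with M-CSF, which turns marrow progenitors into macrophages, for 7 days, received no treatment and carry the time label 0 h. How the T403A allele was made, whether it was homozygous and how many animals gave cells are not given in the sources.

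With 1 library per group, every value below compares these 2 libraries, and the genotype cannot be told apart from any other difference between the cultures. In bulk RNA, fewer cells that express a gene and less RNA per cell cannot be told apart either. Levels are given as CPM, where counts are taken relative to the library total after scaling by TMM, a method that assumes equal levels for most genes, and ratios carry an exact 95% counting interval that covers counting error only. To be called higher or lower, a gene had to differ by at least 1.5-fold with an interval that excluded 1.

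Death receptors such as FAS, and the receptors of the ligand TRAIL (encoded by Tnfsf10), recruit the adaptor FADD and the protease caspase-8 to start apoptosis, a death with an intact membrane. The protein cFLIP (Cflar) resembles caspase-8 and limits its activity, and the kinase RIPK1 serves both survival signalling and death. When caspase-8 does not act, RIPK3 can phosphorylate MLKL, which then breaks the plasma membrane (necroptosis). ZBP1, itself an interferon-inducible protein, binds Z-form RNA or DNA and engages RIPK3 through a shared interaction motif. XAF1 was named for its binding of the caspase inhibitor XIAP and is also interferon-inducible. STAT2 is a subunit of the factor ISGF3, which also contains IRF9 and drives genes with an interferon-stimulated response element.

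The libraries held 16033032 counts (WT) and 18658381 counts (T403A). Stat2 itself was at 376 CPM (WT) and 84.4 CPM (T403A), and a substitution of 1 residue need not change a read count, so this does not check the labels. The macrophage markers Adgre1, Csf1r, Cd68, Itgam, Lyz2, Mertk, Fcgr1 and Cd14 were all present, with a summed level of 50364 CPM in WT and 38929 CPM in T403A, and 4 of these 8 (Fcgr1, Cd14, Itgam and Adgre1) were lower in T403A. The 4 T cell markers and 3 of 4 NK cell markers had no count in either library, which allows up to 0.20 CPM each in WT and 0.15 CPM in T403A. The summed level of the dendritic cell list was 2.07 and 0.903 CPM. That of the neutrophil list was 5.67 and 8.32 CPM with Ly6g and Elane at 0. That of the mast cell and basophil list was 0.267 and 1.65 CPM with Fcer1a at 0. Of the genes in these lists with at least 20 counts in both libraries together, S100a9 (28 and 77 counts), Ltf (25 and 64) and Kit (4 and 23) were higher in T403A. Xcr1 (19 and 6 counts) was lower, and S100a8 (31 and 25) met neither condition. The B cell, erythroid and stromal lists summed to 0.20, 0.20 and 1.40 CPM in WT and 0.301, 0.201 and 1.60 CPM in T403A, and 2 of 4 markers of the B cell list and 2 of 4 of the erythroid list had no count in either library.

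The stretches of sequence below are shown because some members are interferon-inducible and interferon signalling acts through short promoter elements. Whether such elements have a part in the differences between the libraries was not tested. The stretches come from RefSeq promoter windows of build GRCm38.p6, which run from 250 bases before to 50 bases after a transcript start. Of the 9 members, 8 matched an entry, while Zbp1 did not. Capitals mark matches on either strand to the interferon-stimulated response element core GAAANNGAA, the gamma-activated sequence TTCNNNGAA to which STAT dimers bind, or AANNGAAAC, a longer form of the half-site bound by interferon regulatory factors. The last of these was added after the sequences of the members had been read, so which members hold it is a description. The windows that hold them were 8.56% (core), 8.30% (gamma-activated sequence) and 5.77% (half-site) of all 32851 windows in the table.
Tnfsf10, the 100 bases before the start, plus strand, chr3:27316977-27317076: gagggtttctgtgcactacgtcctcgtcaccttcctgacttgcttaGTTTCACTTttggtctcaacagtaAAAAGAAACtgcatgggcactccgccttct
Mlkl, the 100 bases before the start, minus strand, chr8:111338206-111338305: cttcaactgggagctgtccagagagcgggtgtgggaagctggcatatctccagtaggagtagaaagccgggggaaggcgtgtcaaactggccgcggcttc
Xaf1, just after the start, plus strand, chr11:72301630-72301658: gtgtgcaaagAAACGAAACtccacagaag
Casp8, plus strand, chr1:58802384-58802412: gcgaaagcagAAACGAAACtgggagacca
Ripk3, just after the start, minus strand, chr14:55788825-55788853: cctcttatttGAAAGGGAAgttgtgaagt
Cflar, across the start, plus strand, chr1:58711488-58711516: cacgtctgctTTCGGTTTCtgggcgtctc
Ripk1, second window, across the start, plus strand, chr13:34002859-34002887: aacgTTCCCGGAAATCGAAaagcgcggaa
Fas, plus strand, chr19:34290556-34290584: tcaaagcgatTTCTGGGAAgacctgaata

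In these windows the half-site was found for Tnfsf10 (54 and 30 bases before the start), Xaf1 (from base 12 after it) and Casp8 (108 bases before it), and the 9 letters matched were identical in Xaf1 and Casp8. The response element core was found for Ripk3, Cflar and Ripk1, and in Ripk1 it overlaps a gamma-activated sequence in the capitals shown. The gamma-activated sequence was found for Fas, 93 bases before the start, and in Ripk1. Thus the core and the gamma-activated sequence, both chosen beforehand, matched no member called lower in T403A with TMM. The half-site was added after the sequences had been read, so its matches in Tnfsf10, Xaf1 and Casp8 cannot show a link with the calls. With library size scaling, Casp8 was not called lower. No letters of these 3 motifs were in the Mlkl window. The Casp8 window belongs to a RefSeq start that lies 7128 bases inside the gene as GENCODE draws it, so it is not the first start of that gene, and the second Ripk1 window belongs to a start 511 bases inside that gene. A match is a description of letters and not evidence of binding.

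Of the 9 genes, 5 were lower in the T403A library (Zbp1, Xaf1, Tnfsf10, Mlkl and Casp8), none was higher and 4 met neither condition (Cflar, Ripk3, Ripk1 and Fas). Over the 11199 genes that reached 20 counts in the libraries together, among which all 9 were found, 10.8% were lower (1214 genes) and 13.5% higher (1515 genes). The median log2 ratio of T403A over WT was -0.67 for the 9 genes and 0.01 for all measured genes. The 9 genes were chosen with earlier results of these data known, so this contrast is a description and not a test. The summed level of the 9 genes was 963 CPM in WT and 520 CPM in T403A. With scaling by library size in place of TMM, the median of all genes moved by 0.19 on the log2 scale, 890 genes (7.95%) were then lower and 2290 (20.4%) higher, Casp8 no longer met the condition for lower and Fas met that for higher.

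**Figure D1:**
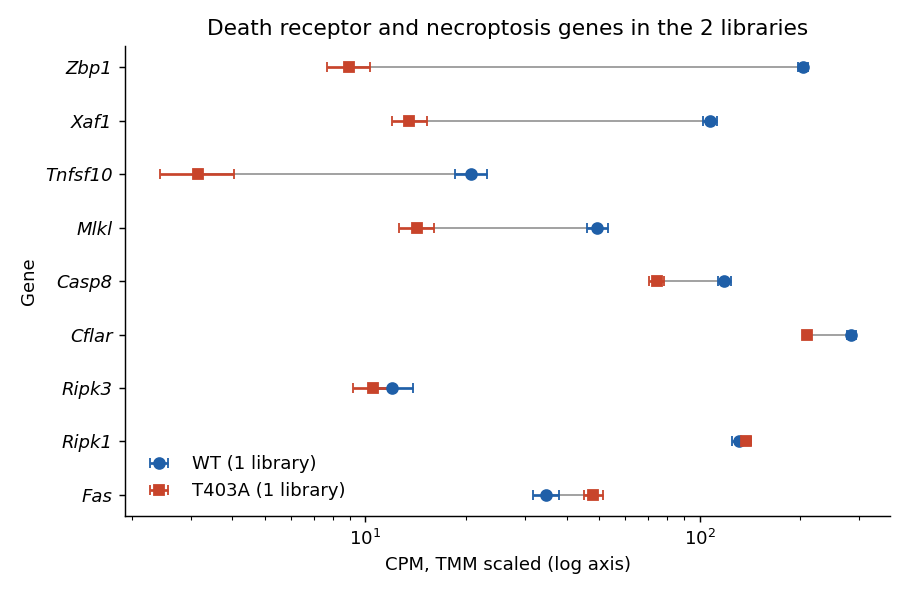
CPM (TMM scaled, log axis) of the 9 genes in the WT library (blue circles) and the T403A library (red squares), 1 library each, with exact 95% Poisson intervals of the count as bars. Zbp1 lies at 204 CPM (WT) and 8.93 CPM (T403A), while the points of Ripk1 and of Ripk3 nearly coincide.

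The nucleic acid sensor gene Zbp1 (ENSMUSG00000027514, protein-coding, chromosome 2, 173206612 to 173218923 on the minus strand, GRCm38) had 3059 counts in WT and 178 in T403A. These are 204 CPM (95% counting interval 197 to 211) and 8.93 CPM (7.66 to 10.3). The level in T403A was thus 22.8-fold lower (19.6 to 26.7), a log2 ratio of -4.51. Ordered by ratio, Zbp1 ranked 38 from the bottom of the 11199 measured genes.

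The genes with levels most like those of Zbp1, by the Euclidean distance of log2(CPM + 0.5) over the 2 libraries with no correction for gene length, were Cxcl14 (194 and 7.22 CPM in WT and T403A, distance 0.30), Isg15 (161 and 8.42 CPM, distance 0.35), Ms4a4a, Ifi211 and Ddx60. Cxcl14 encodes a chemokine, Isg15 a ubiquitin-like modifier and Ifi211 a member of the interferon-inducible Ifi200 family. They were between 11.3-fold (Ddx60) and 26.9-fold (Cxcl14) lower in T403A, and the likeness rests on 2 points per gene. Reads of Ifi211 and Ms4a4a may be shared with similar family members.

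The gene of the XIAP-binding protein, Xaf1 (ENSMUSG00000040483, protein-coding, chromosome 11, 72301629 to 72313733, plus strand), had 1613 counts in WT and 270 in T403A. Its level was 108 CPM (102 to 113) in WT and 13.5 CPM (12.0 to 15.3) in T403A, 7.94-fold lower (6.98 to 9.07). The inhibitor it was named for differed far less, since Xiap was at 184 CPM in WT and within 1.5-fold of that in T403A. Per length, the level of Xaf1 relative to Xiap was 1.18 (1.11 to 1.25) in WT and 0.197 (0.173 to 0.224) in T403A, a within-library ratio that no library scaling changes.

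The ligand gene Tnfsf10 (TRAIL, ENSMUSG00000039304, protein-coding, chromosome 3, 27317028 to 27342427, plus strand) had 311 and 63 counts. It was at 20.7 CPM (18.5 to 23.2) in WT and 3.16 CPM (2.43 to 4.04) in T403A, 6.56-fold lower (4.99 to 8.75). The intervals of the levels of Zbp1, Xaf1, Tnfsf10, Mlkl and Casp8 did not overlap between the libraries. Those of Cflar and Fas did not either, although both genes met neither condition with TMM. These intervals cover counting error only. The share of all measured genes without overlap was not counted, so this cannot be called particular to the 9 genes. The only mouse death receptor for TRAIL, Tnfrsf10b, was close to the limit of detection with 12 counts in WT and 26 in T403A. The ligand of FAS, Fasl, had no count in either library.

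**Figure D2:**
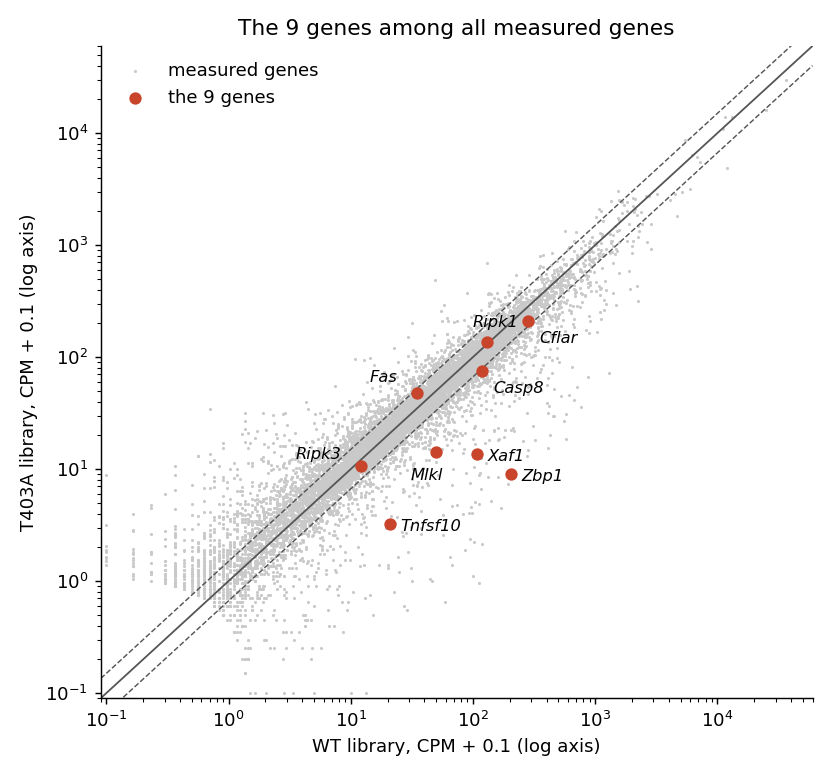
CPM + 0.1 of each measured gene (grey) and of the 9 genes (red, labelled) in the WT library on the x axis and the T403A library on the y axis, both log axes, with the line of equality (solid) and the 1.5-fold lines (dashed). Zbp1, Xaf1, Tnfsf10 and Mlkl lie well below the lower dashed line, Casp8 lies close to it, and Cflar, Ripk1, Ripk3 and Fas lie between the dashed lines.

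The kinases and the executioner of necroptosis did not differ alike. Mlkl, which encodes the pore-forming end of the pathway (ENSMUSG00000012519, protein-coding, chromosome 8, 111311797 to 111338177, minus strand), had 741 counts in WT and 284 in T403A. It was at 49.4 CPM (45.9 to 53.1) and 14.2 CPM (12.6 to 16.0), 3.47-fold lower in T403A (3.02 to 3.99). Ripk3, the kinase that acts on MLKL (ENSMUSG00000022221, protein-coding, chromosome 14, 55784995 to 55788865, minus strand), had only 180 and 210 counts. Its level was 12.0 CPM (10.3 to 13.9) in WT and 10.5 CPM (9.15 to 12.1) in T403A, intervals that overlap, with a log2 ratio of -0.19 (interval -0.48 to 0.11) that was 0.00 under library size scaling. With TMM, the interval of the Ripk3 ratio ran from 1.40-fold lower to 1.08-fold higher, which covers counting error only. A difference of Ripk3 within that range was not detectable at this depth.

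Ripk1 (ENSMUSG00000021408, protein-coding, chromosome 13, 34002363 to 34037147, plus strand), the kinase shared by survival and death signalling, had 1965 counts in WT and 2746 in T403A. It was at 131 CPM (125 to 137) and 138 CPM (133 to 143), a log2 ratio of 0.07 (-0.01 to 0.16), so the intervals of its levels overlapped. With library size scaling the log2 ratio was 0.26, still within 1.5-fold. A limit is that 241 bases of its exons overlap those of Serpinb6a on the opposite strand, which had 2912 counts in WT and 5528 in T403A, and 511 bases overlap a pseudogene on the same strand, and the strand setting of the counting is not known. None of the other members had exons that overlap another annotated gene.

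Because Mlkl and Zbp1 were lower while Ripk3 met neither condition, the balance within each library differed. Per length, Mlkl stood at 4.10 times the level of Ripk3 in WT (3.48 to 4.85) and 1.35 times in T403A (1.12 to 1.62). Zbp1 stood at 11.0 times the level of Ripk3 in WT (9.49 to 12.9) and 0.551 times in T403A (0.448 to 0.675). Relative to Ripk1, Zbp1 was at 3.68 (3.48 to 3.90) and 0.153 (0.131 to 0.178). These ratios of 2 genes in 1 library do not depend on the scaling between libraries, and they show unequal difference, not which gene stayed the same.

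The initiator protease gene Casp8 (ENSMUSG00000026029, protein-coding, chromosome 1, 58795374 to 58847503, plus strand) had 1780 counts in WT and 1484 in T403A. It was at 119 CPM (113 to 124) in WT and 74.4 CPM (70.7 to 78.3) in T403A, 1.59-fold lower (1.49 to 1.71), and its log2 ratio of -0.67 became -0.48 with library size scaling, which is within 1.5-fold. Its catalytically inactive relative Cflar (ENSMUSG00000026031, protein-coding, chromosome 1, 58711508 to 58758884, plus strand), the neighbouring gene, had 4270 and 4182 counts. Cflar was at 285 CPM (276 to 293) and 210 CPM (203 to 216), 1.36-fold lower (1.30 to 1.42) and so below the 1.5-fold condition, although the intervals of the levels do not overlap. Per length, Cflar stood at 0.548 times Casp8 in WT (0.518 to 0.579) and 0.644 times in T403A (0.606 to 0.683). Casp8 relative to Mlkl was at 1.91 (1.75 to 2.09) in WT and 4.16 (3.66 to 4.74) in T403A.

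Fas was the member with the largest ratio of T403A over WT. The receptor gene (ENSMUSG00000024778, protein-coding, chromosome 19, 34290666 to 34327772, plus strand) had 521 counts in WT and 960 in T403A. It was at 34.7 CPM (31.8 to 37.8) in WT and 48.1 CPM (45.1 to 51.3) in T403A, 1.39-fold higher (1.24 to 1.55), and its intervals do not overlap. The log2 ratio was 0.47 with TMM, 0.46 with DESeq2 size factors and 0.66 with library size scaling, and only with library size did Fas pass 1.5-fold.

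**Figure D3:**
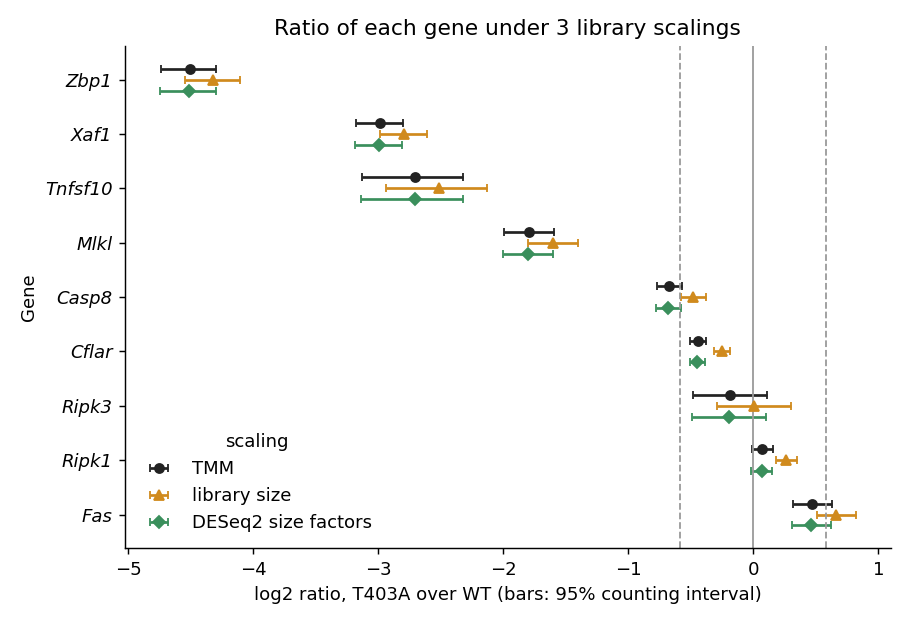
Log2 ratio of T403A over WT (x axis) of each of the 9 genes under TMM (black circles), library size (orange triangles) and DESeq2 size factors (green diamonds), with 95% counting intervals as bars, a solid line at equality and dashed lines at 1.5-fold. The 4 genes from Zbp1 (-4.51 with TMM) to Mlkl (-1.79) lie beyond the dashed line in each scaling, whereas Casp8 and Fas cross it with library size.

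The 9 genes were ordered by their level per length, as CPM per kilobase of exon. In the WT library Zbp1 was highest (57.8 CPM per kilobase), followed by Casp8 (41.0), and then by Xaf1 (22.9), Cflar (22.5), Mlkl (21.4) and Fas (19.3). Neighbours from Xaf1 to Fas in this order did not differ beyond their counting intervals, and below them came Ripk1 (15.7), Ripk3 (5.23) and Tnfsf10 (3.94), each apart from its neighbours. In the T403A library Fas (26.7 CPM per kilobase) and Casp8 (25.7) led and overlapped, then Cflar (16.6) and Ripk1 (16.5) overlapped, and Mlkl (6.18) and Ripk3 (4.59) followed. Xaf1 (2.89) and Zbp1 (2.53) overlapped near the bottom, and Tnfsf10 (0.600) was the lowest.

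Zbp1 was thus the first of the 9 genes in WT and the eighth in T403A, and Fas the sixth in WT and the first in T403A. The deposited length of Fas, 1801 bases, is shorter than its exon union of 2062 bases in GENCODE M21, and with the latter Fas would be at 23.3 CPM per kilobase in T403A, below Casp8. The 12669 bases of Cflar join the exons of several transcripts, so its level per length is a lower estimate if shorter transcripts prevail, and this was not tested. Among all measured genes, the level per length of Zbp1 lay at percentile 92.9 in WT and 27.5 in T403A, and that of Ripk1 at percentile 73.7 and 76.7.

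**Figure D4:**
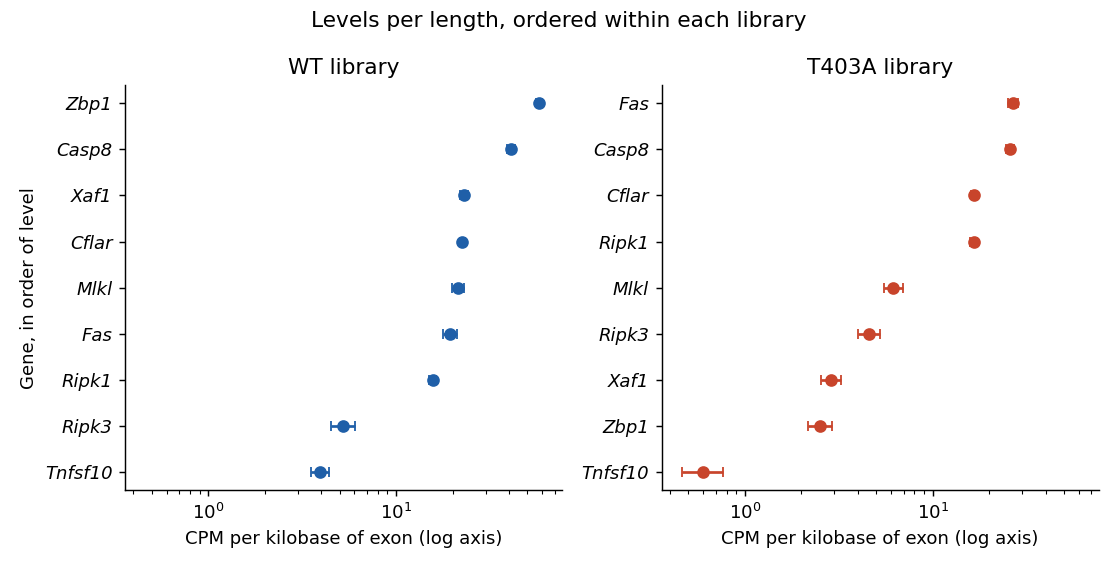
CPM per kilobase of exon (log axis) of the 9 genes, ordered by level within the WT library (left) and the T403A library (right), with exact 95% Poisson intervals of the count as bars. Zbp1 heads the order in WT at 57.8 and lies at 2.53 in T403A, next to Xaf1 at 2.89.

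The other genes of these pathways were examined in lists with the 9 members left out. Over all measured genes, 10.8% were lower and 13.5% higher with TMM, and 7.95% were lower with library size scaling. The shares lower with TMM were 20% (death receptors), 16% (TNF receptor complex), 26.7% (necroptosis), 7.69% (caspases) and 27.3% (IAP family). The lists are short and were chosen with earlier results of these data known. Whether their shares differ from that of all genes was not tested. Among death receptors, ligands and adaptors, 10 genes were measured, of which 2 were lower and none was higher, and the median log2 ratio was -0.12. The lower genes were Tnfrsf1b, the second TNF receptor, at 2045 CPM (WT) and 1082 CPM (T403A) (1.89-fold), and Tnfrsf22, a decoy receptor for TRAIL, at 9.60 and 5.27 CPM (1.82-fold). The first TNF receptor gene, Tnfrsf1a, was at 234 and 174 CPM and within 1.5-fold, and the adaptor gene Fadd was at 9.80 and 9.98 CPM. No count was found for Fasl, Tnfrsf25 and Tnfrsf11b in either library.

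In the list of the TNF receptor complex and the ubiquitin regulators of RIPK1, 4 of 25 genes were lower (Rnf31, Ikbke, Tnfaip3 and Azi2), none was higher and the median was -0.21. With library size scaling Azi2 was within 1.5-fold and 3 genes were lower. Rnf31, the catalytic subunit of the linear ubiquitin ligase, was 1.84-fold lower (1.69 to 2.02), with 123 bases of exon shared with Irf9 on the same strand. The kinase gene Ikbke was at 755 CPM in WT and also 1.84-fold lower in T403A, and antisense gene models overlap its exons. Mapkapk2, whose kinase phosphorylates RIPK1, was at 581 CPM in WT and 1.14-fold higher in T403A, within the condition.

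Of 15 further genes of necroptosis and its regulation, 4 were lower (Adar, Hsp90aa1, Chmp4b and Chmp2a), none was higher and the median was -0.27. Adar, which edits double-stranded RNA and limits the ligands of ZBP1, was at 199 CPM (WT) and 72.1 CPM (T403A), 2.76-fold lower (2.59 to 2.94), and its exons overlap those of Chrnb2 on the opposite strand, which had 31 and 63 counts. Hsp90aa1, a chaperone of RIPK1, RIPK3 and MLKL, was 2.05-fold lower (1.96 to 2.14). The second HSP90 gene, Hsp90ab1, was at 1188 and 815 CPM and the membrane repair gene Pdcd6ip (ALIX) at 381 and 357 CPM, both within 1.5-fold. Chmp2a, at 95.7 and 63.7 CPM, only just met the condition, and it was within 1.5-fold with library size scaling, which left 3 genes lower. Ticam1 (TRIF), which like ZBP1 carries the motif that engages RIPK3, was at 32.3 CPM (WT) and 33.9 CPM (T403A).

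Few caspase and gasdermin genes met the condition. Of 13 measured genes only Cycs, the cytochrome c that leaves mitochondria in apoptosis, was lower (72.9 and 36.2 CPM, 2.01-fold), none was higher and the median was -0.08. The share that was lower, 7.69%, was near the 10.8% over all measured genes. The gasdermin gene Gsdmd was at 176 and 147 CPM and Ninj1, which ruptures the membrane of dying cells, at 550 and 564 CPM. Casp8 was the only measured caspase gene that met the 1.5-fold condition with TMM.

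In the IAP family and its antagonists, 3 of 11 measured genes were lower (Naip1, Naip2 and Naip5), none was higher and the median was -0.29. With library size scaling Naip5 was within 1.5-fold and 2 genes were lower. Naip1, with 73 counts in WT and 10 in T403A, was 9.70-fold lower (4.99 to 21.1), and Naip2 2.05-fold lower (1.95 to 2.16), where near-identical Naip copies make the split of reads uncertain. Birc3, an IAP that ubiquitinates RIPK1, was at 268 CPM in WT and 1.40-fold lower in T403A, and the giant IAP gene Birc6 1.07-fold lower, both within the condition.

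**Figure D5:**
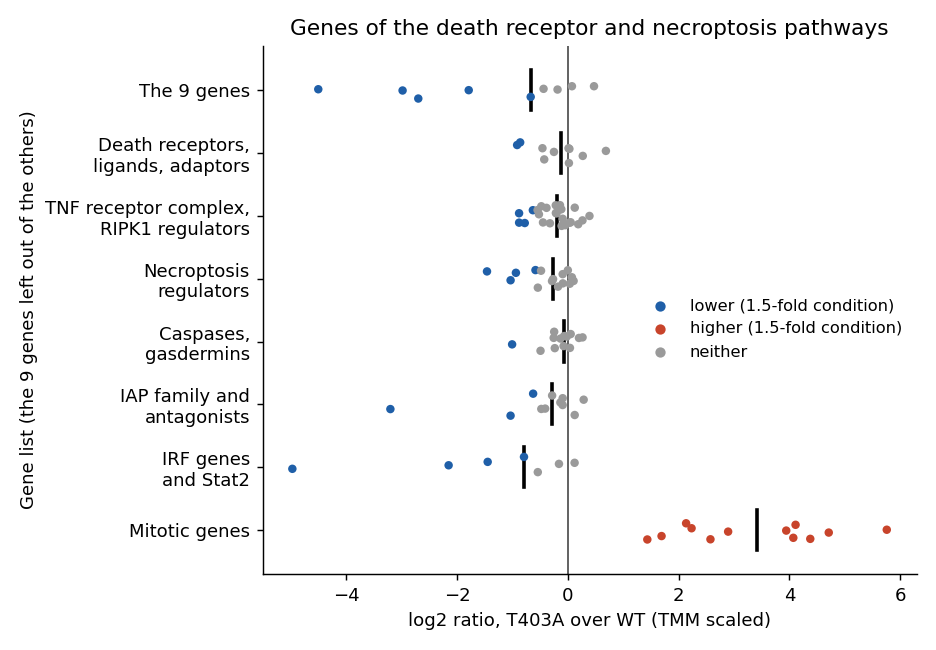
Log2 ratio of T403A over WT (x axis) of each measured gene in the list of 9 and in 7 other lists, from which the 9 are left out, with points coloured by the 1.5-fold condition (blue lower, red higher, grey neither) and a black bar at each list's median. The medians of the 5 cell death lists lie between -0.29 and -0.08, that of the 9 genes at -0.67, that of the interferon regulatory factor (IRF) genes with Stat2 at -0.79 and that of the mitotic genes at 3.42.

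Among 7 transcription factor genes of the interferon response, the listed interferon regulatory factor genes and Stat2, 4 were lower (Irf7, Stat2, Irf9 and Irf2) and none was higher. Over all measured genes, 10.8% were lower. The median log2 ratio of the 7 genes was -0.79. These 7 were grouped after the values were seen, so their median is not compared with that of the 9 genes. Irf7, whose exons share 45 bases with Phrf1 of the opposite strand, was at 581 CPM (WT) and 18.4 CPM (T403A) (31.6-fold lower, 28.4 to 35.1), which is further apart than Zbp1. Stat2 was 4.46-fold lower (4.22 to 4.71). Irf9, the DNA-binding subunit of ISGF3, was 2.73-fold lower (2.52 to 2.96), while Irf8 was at 289 and 259 CPM. The ratios of Zbp1, Xaf1 and Tnfsf10 lay further from 1 than that of Stat2, with intervals that did not overlap its own, and the ratio of Mlkl lay between those of Stat2 and Irf9.

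Mitotic genes also differed between the 2 libraries, with 12 of 12 listed genes higher in T403A and a summed level of 88.7 CPM in WT and 540 CPM in T403A. Over all measured genes, 13.5% were higher with TMM and 20.4% with library size scaling. This list too was chosen with earlier results of these data known. The proliferation marker Mki67 was at 54.8 and 258 CPM and the topoisomerase gene Top2a at 12.7 and 94.3 CPM. Cenpf, of the kinetochore, was 56.7-fold higher on 9 and 678 counts, and Birc5, an IAP relative that acts in mitosis, 27.7-fold higher on 7 and 258 counts. The part of cell cycle activity and of the lower macrophage markers in the values of the 9 genes was not tested.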

How the data were processed

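RNA from 2 macrophage libraries, 1 WT and 1 T403A, was measured by RNA-seq (1 μg total RNA, Illumina HiSeq, per the labels' protocols). The deposited values are whole-number read counts per Ensembl gene with a gene length in bases, per the file headers. Per the submitters' processing notes, the build was GRCm38 and the tools were HISAT2, cutadapt 1.15, DESeq 1.30.0 and HTSeq 0.9.1. Their roles, the annotation release, the strand setting and the handling of multiply mapped reads are not given in the sources. Columns were matched to samples by title, and 21969 of 22060 identifiers had a symbol. Positions and exon overlaps come from GENCODE M21 on GRCm38, whose exon union equalled the deposited length for 96.8% of genes.

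Counts were scaled with TMM (edgeR 4.0.16, R 4.3.3). Library totals were 16033032 and 18658381. The T403A over WT ratio carries an exact 95% Clopper-Pearson interval on the counts, and levels carry exact Poisson intervals (scipy 1.17.1). Log2 ratios used a prior count of 0.5 per library. Measured genes are those that reached 20 counts in both libraries together. No test was possible with 1 library per group and no p-value is given. The scoring was tested on simulated Poisson counts with known folds and known library totals. That test covered counting error only, and neither TMM scaling nor the spread between cultures. Alternatives were library size, DESeq2 1.42.0 size factors, a prior count of 2, no count filter, a summed count of at least 100 and a 2-fold condition.

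Named genes are the 9 members, Stat2, and from each of 7 lists the 2 with the largest ratio past the condition and the 2 with the highest mean CPM. Some genes that this rule names are not reported here, and the list of interferon response factors is given as its interferon regulatory factor genes and Stat2, a choice made after the values were seen. Fasl, Tnfrsf10b, Tnfrsf11b, Tnfrsf25, Fadd, Xiap, Ticam1, Tnfaip3, Azi2, Chmp4b, Chmp2a, Naip5, Irf9 and Irf2 were named after their values were seen. The members and lists were chosen with earlier results of these data known.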

Additional observations from a re-analysis of the deposited data

How the results depend on the processing

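DESeq2 size factors and a prior count of 2 left the log2 ratios of the 9 genes within their counting intervals. Library size scaling moved 5 of the 9 beyond them: Ripk1 to 0.26, Casp8 to -0.48, Cflar to -0.25, Fas to 0.66 and Xaf1 to -2.80. With it, 1 of the 9 genes was higher (Fas), 4 were lower in place of 5, and 2290 of all measured genes were higher. With a 2-fold condition, 4 of the 9 genes were lower (Casp8 was not), and 681 of all measured genes were lower and 808 higher. With the same condition, 0 genes were lower in the death receptor list, 0 in the TNF receptor complex list and 2 in the necroptosis list. Library size scaling ended the call of lower for Azi2 (log2 ratio -0.44), Chmp2a (-0.39) and Naip5 (-0.44) and changed no other call in the lists. Counts in the lists under no count filter or a summed count of at least 100 stayed within 1.5 times those given. No paired analysis was possible because each group has 1 library. For the same reason no library could be left out. Among the 9 genes, Tnfsf10 and Ripk3 had the widest counting intervals on the log2 scale, and those of Naip1, Tnfrsf10b, Birc5 and Cenpf, each on fewer than 20 counts in 1 library, were wider still.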
